A study of Mus musculus with 40 samples.

Results

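The transcripts of the immunoglobulin kappa variable (Igkv) gene segments were followed across 28 libraries of RNA from follicular B cells, which had been sorted from mice by flow cytometry. The per-library tables listed 24732 genes, of which 103 were Igkv segments. A segment was taken as a member when its TPM (a level per length of gene, scaled to the same total in each library) was above 0 in at least 3 libraries, and 81 segments of 16 families met this. Of the other 22 segments, 13 were at 0 everywhere and 9 were above 0 in 1 or 2 libraries, with 1 to 3 reads in all and highest values of 0.313 to 0.743 TPM. Just inside the rule, 1 member was above 0 in exactly 3 libraries, with 3 reads and a highest value of 0.323 TPM. All 103 segments were found by symbol in the RefSeq table of assembly GRCm38.p6, which places them on chromosome 6. RefSeq lists 79 members as V segments and 2, Igkv14-126 and Igkv2-116, as V segment pseudogenes. The deposited tables rest on another build, mm9, so no coordinates are given.

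A kappa light chain is made when a developing B cell joins 1 of many V segments to 1 of a few J segments, upstream of the single constant region gene Igkc. A normal mouse therefore carries a broad mixture of V segments in its B cells, and each mature B cell as a rule transcribes 1 productive light chain. MD4 mice instead carry rearranged heavy and light chain transgenes from HyHEL-10, an antibody against hen egg lysozyme (HEL), whose light chain V segment belongs to the V kappa 23 group, now the Igkv5 family. The endogenous kappa alleles are still present in such mice, and their rearrangement is known to be suppressed in large part but not fully. The deposited tables do not mark the transgene, so transgenic and endogenous transcripts of 1 segment cannot be told apart. Ikaros, encoded by Ikzf1, is a zinc finger protein of lymphocytes. CpG DNA is a ligand of the receptor Tlr9.

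Every library came from C57BL/6 mice with MD4. Floxed (fl) Ikzf1 alleles were deleted by Cd23-cre, which acts late in B cell development, after rearrangement of the light chain genes. In fl/- cells the other allele was without function from the start. Naive cells taken directly from mice had Cd23-cre with Ikzf1(fl/-) in 2 libraries and with Ikzf1(fl/+) in 2 others, and their library numbers begin with 36. The same genotypes, Cre fl/- and Cre fl/+, were used for cells cultured with CpG for 1 day, with 4 libraries each and numbers that begin with 49. All other libraries have numbers that begin with 57. They were 3 anergic libraries from mice with MD4 and ML5, which makes the mouse produce soluble HEL, 5 libraries of Cd23-cre Ikzf1(fl/fl) cells and 5 of Ikzf1(fl/fl) cells without Cre taken 1 day after an injection of HEL, and 3 naive control libraries. The anergic genotypes were ML5 with Ikzf1(fl/fl), with Ikzf1(fl/+), and with Cd23-Cre and Ikzf1(fl/+) (replicates 1, 2 and 3). The naive controls of series 57 were Ikzf1(fl/+) without Cre (replicates 1 and 2) and Cd23-cre Ikzf1(fl/+) (replicate 3). The 36, 49 and 57 groups of numbers are called series below, and groups were compared only within a series. The 1 exception is a difference of 2 such comparisons, loss of Ikaros after CpG and after HEL. Nothing in the labels ties replicates to separate mice. The p-values below thus reflect the spread among these libraries only, and part of it may be technical.

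Whole reads could be recovered from the TPM steps, and the libraries held 12126702 to 25424364 reads. For an Igkv segment 1 read was worth 0.188 to 0.536 TPM. A segment at 0 in a library may thus have been at up to 0.592 to 1.31 TPM, the worth of 3 reads of the median member. These limits cover counting error only. Ikzf1 was lower in all libraries with its deletion than in their controls, at 57.3 to 65.3 against 120 to 136 TPM in naive cells, 31.7 to 39.5 against 135 to 172 TPM after CpG, and 60.3 to 79.3 against 195 to 261 TPM after HEL. The B cell marker Cd79b, a signalling chain of the B cell receptor, was at 680 to 1054 TPM in CpG libraries and at 3339 to 4438 TPM in the others. Fcer2a, which encodes the follicular B cell marker CD23, was at 4.61 to 68.4 TPM in CpG libraries and at 538 to 1638 TPM in the others. The 7 listed T cell transcripts summed to 13.8 to 23.9 TPM in the naive libraries of series 36 and to at most 2.01 TPM elsewhere.

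Nearly all kappa V transcripts came from 1 segment, Igkv5-43. It held 94.1% to 99.6% of the summed Igkv TPM in each of the 28 libraries, and 379318 recovered reads in all. The next member by mean share, Igkv5-39, had 680 reads, followed by Igkv1-135 with 639, Igkv19-93 with 369 and Igkv5-45 with 352. The next 5 by mean share were Igkv16-104, Igkv1-117, Igkv14-111, Igkv1-110 and Igkv2-109. Only 5 members reached 10 TPM in any library, and 22 never reached 1 TPM. Besides Igkv5-43, Igkv5-39 and Igkv5-45 were the members above 0 in all 28 libraries.

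In naive cells of series 36, Igkv5-43 was at 2537 and 1991 TPM in Cre fl/- libraries and at 1756 and 1969 TPM in Cre fl/+ libraries. After CpG it was at 5855, 4335, 4756 and 4481 TPM in Cre fl/- libraries and at 4423, 5566, 4331 and 4883 TPM in Cre fl/+ libraries. The CpG groups overlapped, while the 2 naive groups lay next to each other without overlap. In series 57 the segment was at 2407, 2004 and 3291 TPM in anergic libraries. After HEL it was at 5337, 5343, 5505, 4226 and 5286 TPM in Cre fl/fl libraries and at 4165, 3406, 3961, 3517 and 4237 TPM in fl/fl libraries. The naive controls held 7372, 6394 and 4107 TPM, with the lowest value in the library that carries Cre. Group means thus ran down from naive controls of series 57 (5958 ± 1675 TPM, SD) through HEL Cre fl/fl (5139 ± 517), CpG Cre fl/- (4857 ± 688), CpG Cre fl/+ (4801 ± 564), HEL fl/fl (3857 ± 377), anergic (2567 ± 658) and naive Cre fl/- cells (2264 ± 385) to naive Cre fl/+ cells (1863 ± 151). The naive groups of series 36 and the naive controls of series 57 lay far apart, and series and cell source cannot be told apart there.

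**Figure D1:**
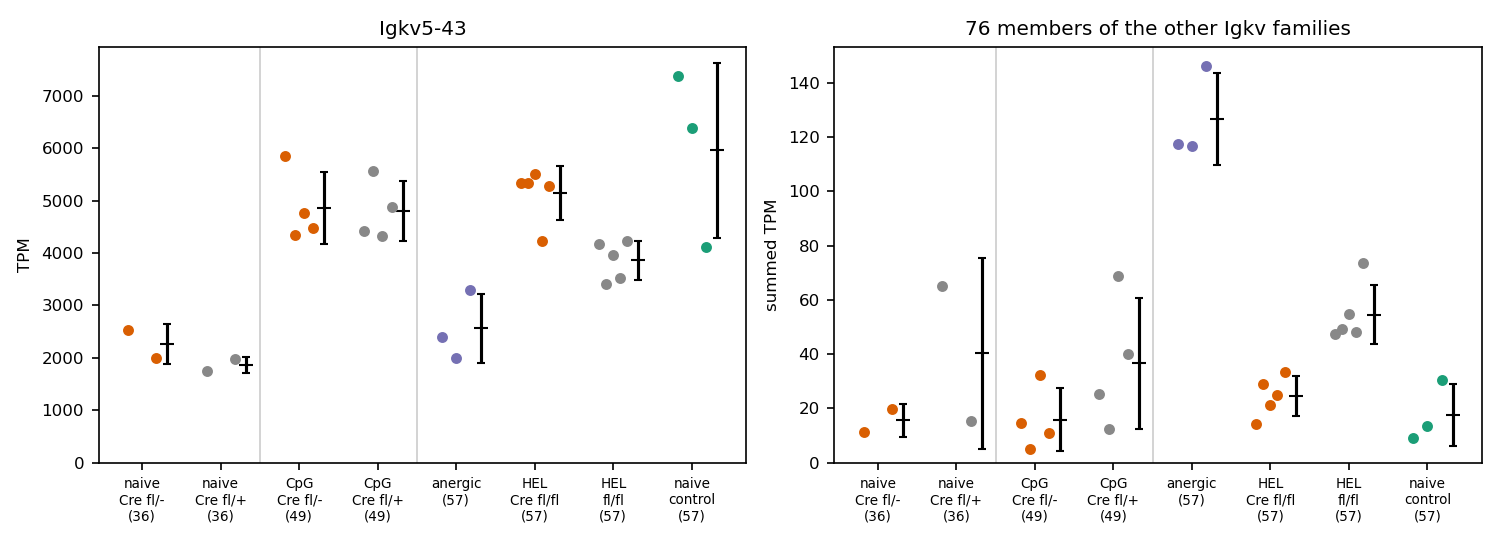
Left, TPM of Igkv5-43, and right, summed TPM of the 76 members outside the Igkv5 family, with 1 point per library, a dash for the group mean and bars of 1 SD. Numbers in parentheses are the library series, separated by grey lines. Anergic libraries are low for Igkv5-43 within series 57 and stand above all other libraries at 117 to 146 TPM for the other families.

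Set against its constant region, Igkv5-43 ranked differently. Its level was 32.7% ± 2.3 and 30.6% ± 2.2 of that of Igkc in CpG Cre fl/- and Cre fl/+ cells (SD, n = 4 each). In series 57 it was 12.4% ± 1.5 of Igkc in anergic cells, 18.1% ± 2.9 in HEL Cre fl/fl cells, 20.01% ± 2.74 in HEL fl/fl cells and 17.5% ± 0.88 in naive controls (n = 3, 5, 5 and 3). Anergic libraries, at 10.8% to 13.9%, did not overlap the naive controls at 16.7% to 18.4% or the HEL fl/fl libraries at 16.9% to 22.7%. The naive cells of series 36 were as low, at 9.61% to 11.6% in Cre fl/- and 10.6% to 14.5% in Cre fl/+ libraries. A low ratio was thus not particular to anergic cells. The joining segment Igkj2 was also unlike in CpG libraries, at 2982 to 5287 TPM against 42.7 to 338 TPM in every other library. CpG cells were cultured and belong to another series, which cannot be told apart here.

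The other 4 Igkv5 members were expressed at a small fraction of Igkv5-43. Igkv5-39 was at 3.37 to 19.1 TPM and at 0.120% to 0.423% of the Igkv sum over all libraries. Igkv5-45 was at 1.03 to 10.2 TPM and was highest in CpG libraries, at 5.88 to 10.2 TPM against 1.03 to 5.39 TPM elsewhere. Both followed Igkv5-43 more closely than any other member did. Pearson's r of log2(TPM + 1) over the 28 libraries was 0.62 for Igkv5-45, 0.61 for Igkv5-39 and 0.42 for Igkv5-37, which had 24 reads in all, and at most 0.19 for the other members. These points share libraries, series and depth, and r is given as a description. Igkv5-48 had an r of -0.29, at 4.04, 1.49 and 3.28 TPM in anergic libraries and at 0 to 2.98 TPM elsewhere, with overlap. Closely alike segments such as those of 1 family can share reads, so their single values are uncertain.

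**Figure D2:**
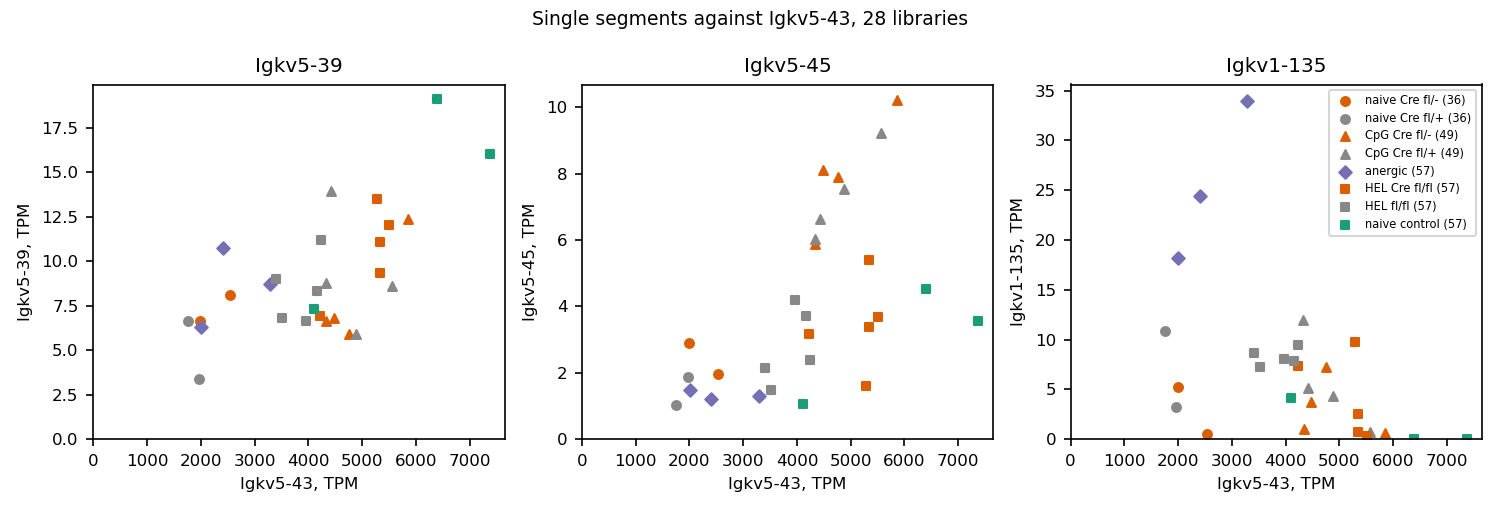
TPM of Igkv5-39, Igkv5-45 and Igkv1-135 against TPM of Igkv5-43, with 1 point per library, colour and symbol giving the group and series. Igkv5-39 and Igkv5-45 rise with Igkv5-43 (r of 0.61 and 0.62 on the log2(TPM + 1) scale), whereas Igkv1-135 is at 18.2 to 33.9 TPM in anergic libraries with little Igkv5-43.

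The 76 members of other families summed to 5.18 to 146 TPM in a library. Members with the order numbers 91 to 137 in their names, which number the segments along the locus, made up 50.9% to 79.5% of this sum by group mean. In bulk RNA fewer cells with such a transcript and less transcript in each cell cannot be told apart. The map of all members shows rows that are brighter in 1 group than in the others.

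**Figure D3:**
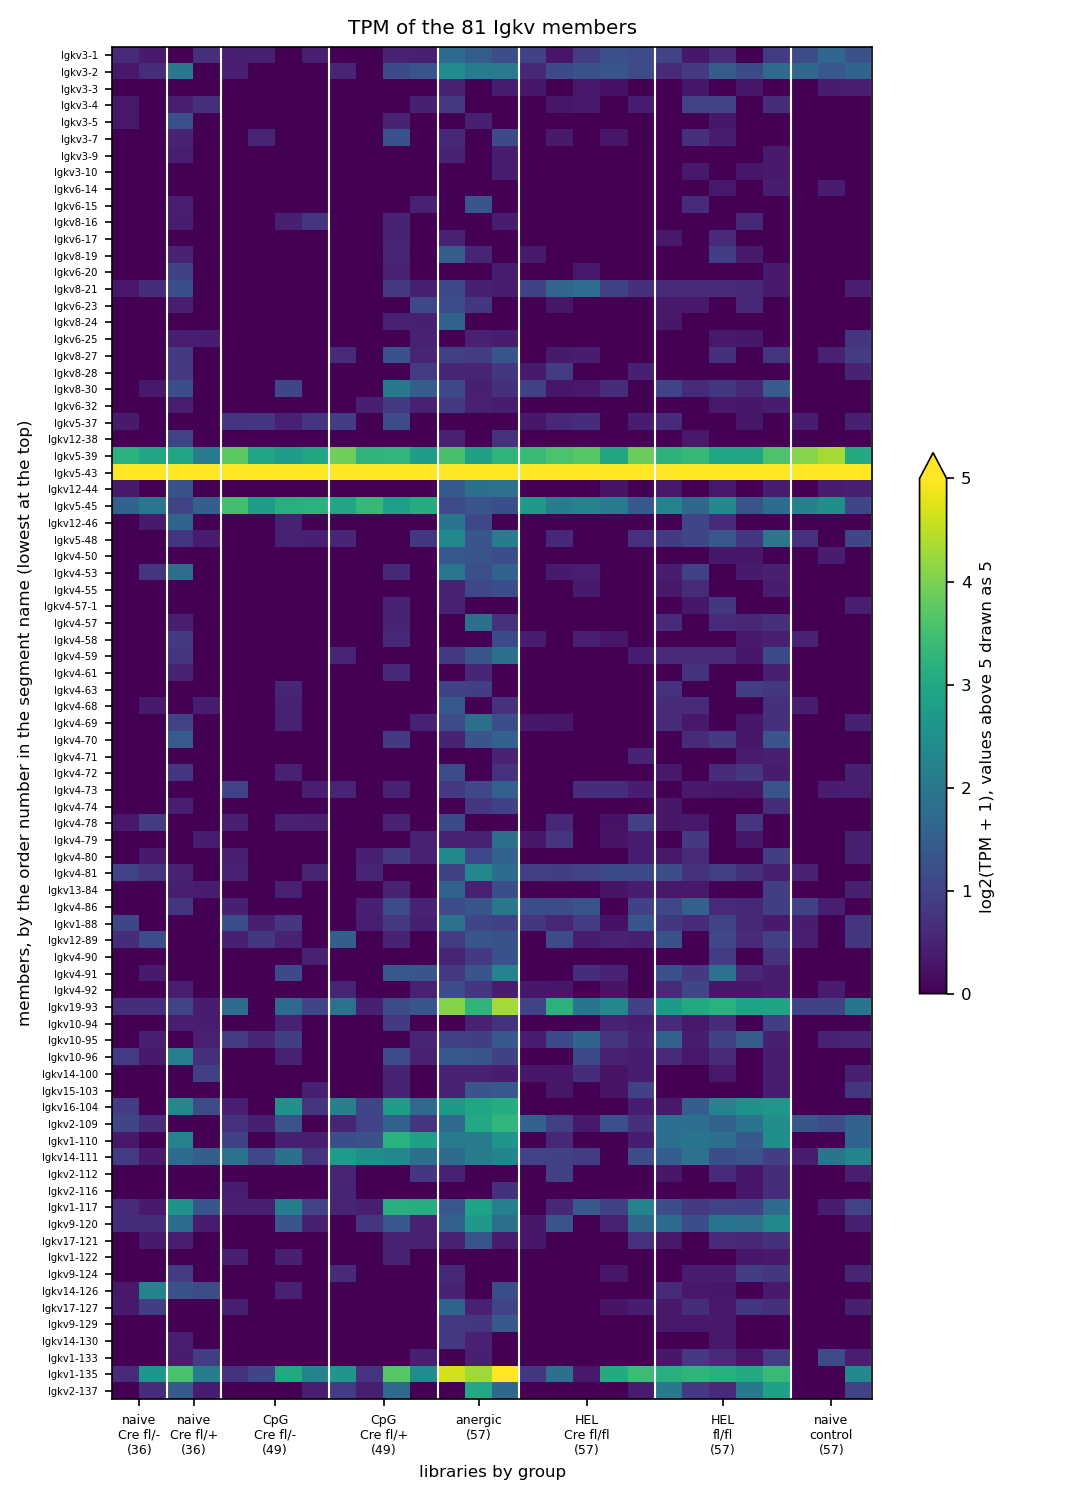
Level of each of the 81 members (rows, by order number in the name) in each of the 28 libraries (columns, by group, series in parentheses), as log2(TPM + 1). Igkv5-43 is saturated in every column; Igkv5-39 and Igkv5-45 are above 0 in all columns; the rows of Igkv1-135 and Igkv19-93 are brightest in the anergic columns.

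The first comparison asked how B cells that meet HEL throughout life differ from naive cells. Segments of 6 other families (Igkv1, Igkv4, Igkv9, Igkv12, Igkv16 and Igkv19) were called higher in anergic cells than in naive controls, and Igkv5-43 was called lower. The call of Igkv5-43 and 5 of the 11 higher calls did not hold without every single library, as given below. Other families summed to 117, 117 and 146 TPM in anergic libraries, against 8.99, 13.4 and 30.6 TPM in naive controls. The groups did not overlap, the means differed 7.18-fold, and the naive library with Cre was the highest of its group. The fold ran from 5.77 to 11.3 with each library left out in turn. Members above 0 numbered 63, 58 and 62 in anergic libraries and 16, 19 and 37 in naive controls. With each library thinned to 47 reads outside Igkv5-43, anergic libraries held 24.2 ± 0.9 distinct segments and naive controls 15.4 ± 6.1 (SD, n = 3 each). These reads include the other 4 Igkv5 members. By group mean they held 9.23% of the TPM outside Igkv5-43 in anergic and 52.6% in naive control libraries, so the depth for other families was not equal. The evenness, which is 0 when 1 member holds everything and 1 when all are equal, was 0.088 ± 0.010 in anergic cells and 0.012 ± 0.006 in naive controls. These sums, shares and evenness values are scores over the chosen members and carry no test.

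Igkv1-135 was at 24.4, 18.2 and 33.9 TPM in anergic libraries, against 0, 0 and 4.09 TPM in naive controls. The groups were far apart, with a log2 difference of 3.90 ± 0.58 (SE, adjusted p = 0.0065, limma on log2(TPM + 1), Benjamini-Hochberg over all genes tested). Igkv19-93 was at 15.9, 8.62 and 18.8 TPM in anergic libraries, against 0.978, 0.977 and 2.87 TPM in naive controls. Every anergic value again lay above every naive one (2.58 ± 0.34, adjusted p = 0.0035). Igkv16-104 was at 5.64, 6.67 and 7.51 TPM in anergic libraries and at 0 in all 3 naive controls. Its fitted difference of 2.92 ± 0.16 (adjusted p = 7.6e-05) depends on the added 1 TPM. Igkv12-44, whose number is next to that of Igkv5-43, was at 1.61, 2.60 and 2.62 TPM in anergic libraries, against 0, 0.323 and 0.356 TPM in naive controls (1.42 ± 0.22, adjusted p = 0.0071). Igkv4-53 (1.58 ± 0.22) and Igkv9-120 (1.89 ± 0.30) were also low, with at most 2.88 and 5.48 TPM in an anergic library.

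Of the 81 members, 21 passed the filter for low values in this comparison. Among them 12 were called, beside 7.37% of all genes tested: 11 were higher, beside 4.48% of all, and 1 was lower, beside 2.89%. The other 9 did not pass, among them Igkv5-39 (-0.59), Igkv5-45 (-0.68) and Igkv5-48 (1.33). A member with little transcript in one group could enter only through the other group, so these counts are no support by themselves. The calls of Igkv1-135, Igkv16-104, Igkv19-93, Igkv9-120, Igkv4-53 and Igkv12-44 held without any single library. The other 5 higher calls were Igkv1-110 (1.70), Igkv1-117 (1.67), Igkv4-80 (1.52), Igkv4-69 (1.25) and Igkv4-50 (1.16). The single lower call was Igkv5-43 itself (-1.20 ± 0.24, adjusted p = 0.023), whose anergic libraries all lay below the naive ones. All 6 of these calls were lost without naive control replicate 1, where the differences were 1.43, 1.43, 1.44, 1.18, 1.09 and -1.03 in that order and 7 members in all were called. Igkv5-43 also lost its call without anergic replicate 1 (-1.17) or naive control replicate 2 (-1.13). The other 5 were also lost without at least 1 of the anergic libraries: Igkv1-110 without each of the 3, Igkv1-117 without replicates 2 and 3, and Igkv4-80, Igkv4-69 and Igkv4-50 without replicate 1. With no filter, Igkv1-110, Igkv1-117, Igkv4-80 and Igkv5-43 were not past the threshold. With the libraries that carry Cre left out, an alternative chosen after seeing the data, 11 members were called, and Igkv1-117 (1.93), Igkv4-80 (1.71) and Igkv4-50 (1.14) were not among them. Over all genes, 471 were higher and 304 lower, and with scaling by median ratios 410 and 442.

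**Figure D4:**
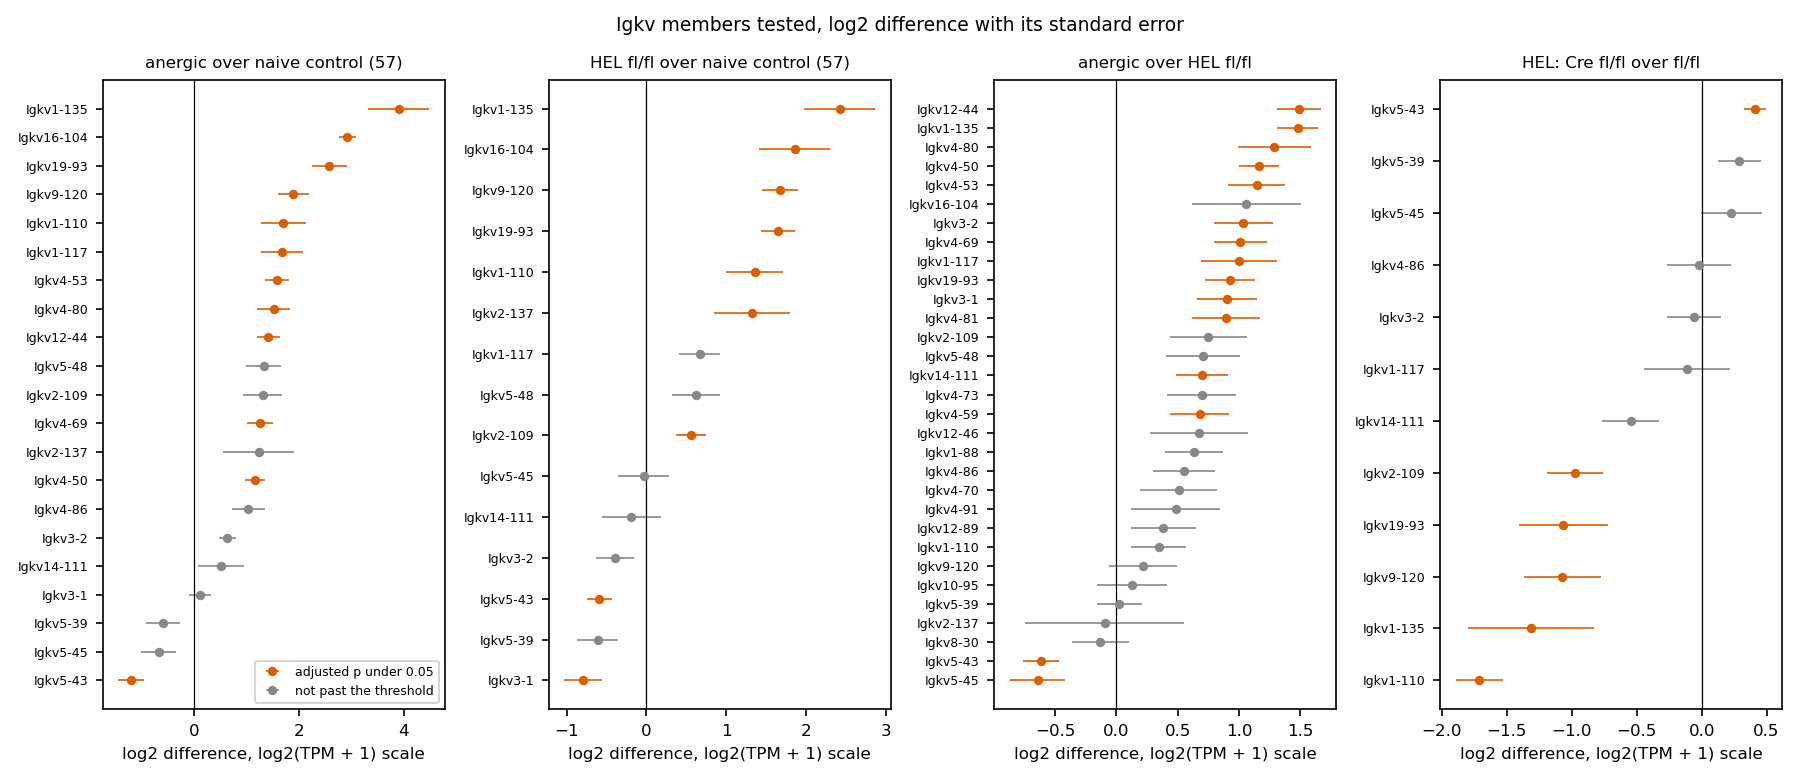
Log2 difference of each tested member with its standard error, for anergic cells over naive controls, HEL fl/fl cells over naive controls, anergic cells over HEL fl/fl cells, and Cre fl/fl over fl/fl cells after HEL. Igkv5-43 is at -1.20, -0.59 and -0.61 in the first 3 panels and is the highest point of the fourth, at 0.41.

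A single day of HEL was compared with naive cells in the same series, and these naive controls are the ones used above. Other families were also higher after 1 day of HEL. They summed to 47.3, 49.3, 54.7, 48.3 and 73.6 TPM in HEL fl/fl libraries, against 8.99, 13.4 and 30.6 TPM in naive controls. The groups did not overlap and the means differed 3.10-fold, with 2.49-fold to 4.89-fold when each library was left out in turn. Members above 0 numbered 49 to 61 in HEL fl/fl libraries and 16 to 37 in naive controls, and evenness was 0.033 ± 0.004 in HEL fl/fl cells and 0.012 ± 0.006 in naive controls (SD, n = 5 and 3). At 47 reads the number of distinct segments overlapped between the groups, because naive control replicate 3 held 22.4.

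Igkv19-93 was at 5.62, 7.26, 8.18, 6.42 and 6.61 TPM in HEL fl/fl libraries, against 0.978, 0.977 and 2.87 TPM in naive controls (1.65 ± 0.21, limma adjusted p = 0.00020). Igkv9-120 was at 2.35, 1.31, 2.83, 2.65 and 4.10 TPM in HEL fl/fl libraries, against 0, 0 and 0.350 TPM in naive controls (1.68 ± 0.23, adjusted p = 0.00030). Igkv1-135 was at 7.28 to 9.42 TPM in HEL fl/fl libraries, against 0, 0 and 4.09 TPM (2.42 ± 0.44, adjusted p = 0.0015). None of these groups overlapped. Igkv16-104 ranged widely among HEL fl/fl libraries, at 0.265, 1.86, 3.65, 4.89 and 5.34 TPM, and was at 0 in the naive controls (1.86 ± 0.45, adjusted p = 0.0065).

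Of 15 tested members 9 were called, beside 48.0% of all genes tested: 7 were higher, beside 9.92% of all, and 2 were lower, beside 38.1%. The same limit of the filter holds as above. The 4 segments just described kept their call without any single library. Igkv1-110 (1.36) lost it without naive control replicate 2 (1.09). Igkv2-137 (1.32) and Igkv2-109 (0.56) lost it without naive control replicates 1 or 2 (1.15 and 1.15, 0.55 and 0.45) and HEL fl/fl replicate 4 (1.23 and 0.56), and Igkv2-137 also without HEL fl/fl replicates 1 and 5 (1.23 and 1.02). Neither was called with no filter or with a fit of the recovered reads (limma voom). Igkv3-1 was lower (-0.80 ± 0.24, adjusted p = 0.019), but did not pass without naive control replicate 2 (-0.64), with voom (-1.66) or with 0.1 TPM added in place of 1 (-1.81). Igkv5-43 was lower (-0.59 ± 0.16, adjusted p = 0.013), while its group ranges overlapped, and it did not pass without naive control replicate 1 (-0.42) or 2 (-0.52) or with scaling by median ratios (-0.40). That scaling moved the median of all genes in this comparison by more than 0.1, to 0.01 where it had been -0.16 with TPM as deposited. It left 2214 genes higher and 2004 lower, where the TPM as deposited gave 1036 and 3979.

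Anergic cells were also set against the HEL fl/fl libraries, which share both groups with the comparisons above. Other families summed to 117, 117 and 146 TPM in anergic libraries and to 47.3 to 73.6 TPM in HEL fl/fl libraries, a 2.32-fold difference of the means without overlap. The range was 2.14-fold to 2.54-fold with each library left out. With scaling by median ratios the log2 ratio of the means was 0.99, below that range, where TPM as deposited gave 1.21. Igkv5-43 was at 2004 to 3291 TPM in anergic libraries and at 3406 to 4237 TPM in HEL fl/fl libraries (-0.61 ± 0.15, limma adjusted p = 0.0088), and this call held without any single library. Igkv1-135 was at 18.2 to 33.9 TPM in anergic libraries and at 7.28 to 9.42 TPM in HEL fl/fl libraries (1.48 ± 0.17, adjusted p = 0.00031). Igkv12-44 was at 1.61 to 2.62 TPM in anergic libraries and at 0 to 0.298 TPM in HEL fl/fl libraries (1.49 ± 0.18, adjusted p = 0.00041). Igkv4-50 was at 1.59, 1.46 and 1.29 TPM in anergic libraries and at 0 in 3 and at most 0.258 TPM in the others of the 5 HEL fl/fl libraries (1.16 ± 0.16, adjusted p = 0.00077). Outside these groups it was above 0 only in 1 naive control, at 0.318 TPM. The groups did not overlap for any of these 4 segments. Among the libraries compared, Igkv12-44 and Igkv4-50 reached 1 TPM only in anergic ones. They thus passed the filter only through that group, so their separation is no support by itself. Igkv4-50 had only 4 reads in each anergic library.

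Of 31 tested members 15 were called, beside 42.2% of all genes tested: 13 were higher and 2 lower, beside 36.8% and 5.39% of all. The share of members that were higher is near that of all genes and is not a result about the members. The limit of the filter holds here as well. Scaling by median ratios moved the median difference of all genes from 0.23 to -0.01 here. It left 1073 genes higher and 1432 lower, where the TPM as deposited gave 3860 and 565, and 9 members higher and 2 lower. Besides the 4 named, Igkv19-93 (0.93), Igkv4-80 (1.29), Igkv4-69 (1.01), Igkv4-53 (1.14) and Igkv3-2 (1.03) kept their call without any single library. The other 5 higher calls were lost without at least 1 library: Igkv1-117 without HEL fl/fl replicates 2 or 4 or anergic replicate 2 (0.62 to 0.95), Igkv3-1 without anergic replicate 1 (0.76), Igkv14-111 without anergic replicates 2 or 3 (0.67 and 0.58), Igkv4-81 without 4 of the 8 libraries (0.57 to 0.87; HEL fl/fl replicates 2 and 4, anergic replicates 2 and 3) and Igkv4-59 without 6 (0.42 to 0.69; HEL fl/fl replicates 1 to 4, anergic replicates 2 and 3). Igkv4-81 and Igkv4-59 were each tested in only 7 of the 8 fits without 1 library. With scaling by median ratios Igkv1-117, Igkv14-111, Igkv4-81 and Igkv4-59 were not called. The second lower call, Igkv5-45 (-0.64 ± 0.23, adjusted p = 0.042), was lost without any 1 of the 3 anergic libraries or of HEL fl/fl replicates 1, 2, 3 and 5, at -0.51 to -0.70, and with no filter or voom. The number of members above 0 overlapped, at 58 to 63 in anergic and 49 to 61 in HEL fl/fl libraries. Evenness did not, at 0.088 ± 0.010 in anergic and 0.033 ± 0.004 in HEL fl/fl cells (SD, n = 3 and 5). Without the segment that held most of the Igkv sum, evenness overlapped too. It was then 0.757 to 0.793 in anergic and 0.737 to 0.776 in HEL fl/fl libraries.

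The next question was whether loss of Ikaros changes these levels after HEL. Cre fl/fl cells had more Igkv5-43 and less of other families than fl/fl cells. Igkv5-43 was at 4226 to 5505 TPM in Cre fl/fl libraries and at 3406 to 4237 TPM in fl/fl libraries. The groups touched only at Cre fl/fl replicate 4, which lay below fl/fl replicate 5 (log2 difference 0.41 ± 0.09, limma adjusted p = 0.0021, n = 5 each). Without each library in turn the difference was 0.37 to 0.48 and stayed past the threshold. Other families summed to 14.1, 28.9, 21.4, 25.1 and 33.3 TPM in Cre fl/fl libraries, against 47.3, 49.3, 54.7, 48.3 and 73.6 TPM in fl/fl libraries. The groups did not overlap, and the Cre fl/fl mean was 0.450 of the fl/fl mean, or 0.410 to 0.497 with each library left out. Members above 0 numbered 26 to 37 in Cre fl/fl libraries and 49 to 61 in fl/fl libraries. At 47 reads, 17.96 ± 1.05 distinct segments were seen in Cre fl/fl libraries and 23.1 ± 0.6 in fl/fl libraries. These reads include the other 4 Igkv5 members. By group mean they held 38.1% of the TPM outside Igkv5-43 in Cre fl/fl and 19.0% in fl/fl libraries, so the depth for other families was not equal. Evenness was 0.015 ± 0.003 in Cre fl/fl and 0.033 ± 0.004 in fl/fl cells, again without overlap (SD, n = 5 each). The other 4 Igkv5 members together did not follow, at 10.1 to 16.3 TPM in Cre fl/fl and 9.26 to 16.5 TPM in fl/fl libraries.

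Igkv1-110 was at 0, 0.465, 0, 0 and 0.308 TPM in Cre fl/fl libraries, against 2.56, 2.83, 2.53, 1.66 and 4.61 TPM in fl/fl libraries (-1.71 ± 0.18, limma adjusted p = 1.2e-05). All Cre fl/fl libraries lay below all fl/fl libraries. Igkv2-109 was at 1.96, 0.918, 0.271, 1.32 and 0.608 TPM in Cre fl/fl libraries, against 2.53, 2.54, 2.00, 2.80 and 4.54 TPM in fl/fl libraries (-0.98 ± 0.22, adjusted p = 0.0033). Here too the groups did not overlap. Igkv9-120 did overlap, at 0 to 2.19 TPM in Cre fl/fl and 1.31 to 4.10 TPM in fl/fl libraries (-1.07 ± 0.29, adjusted p = 0.012). Igkv16-104 was at 0 in 4 Cre fl/fl libraries and at 0.318 TPM in the fifth, against 0.265 to 5.34 TPM in fl/fl libraries. It was below 1 TPM in too many libraries to be tested.

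Of 12 tested members 6 were called, beside 36.9% of all genes tested: 5 were lower and 1 higher, beside 24.1% and 12.9% of all, and the limit of the filter holds as before. Over all genes 1321 were higher and 2469 lower, and with scaling by median ratios 1768 and 1708. Igkv5-43, Igkv1-110, Igkv9-120 and Igkv2-109 kept their call without any single library. Igkv1-135 varied most, at 0.739, 2.54, 0.272, 7.38 and 9.78 TPM in Cre fl/fl libraries, against 7.88, 8.68, 8.03, 7.28 and 9.42 TPM in fl/fl libraries. Replicates 4 and 5 of Cre fl/fl were as high as the controls, and the call (-1.31 ± 0.48, adjusted p = 0.047) was lost without any 1 of the 5 fl/fl libraries or of Cre fl/fl replicates 1, 2 and 3, at -0.93 to -1.35. It was also lost with scaling by median ratios (-1.26), with no filter and with 0.1 TPM added (-1.87). Igkv19-93 (-1.06 ± 0.34, adjusted p = 0.026) was lost without fl/fl replicates 2 or 3 (-1.041 and -1.003) or Cre fl/fl replicates 1 or 5 (-0.845 and -0.833), and with no filter. The fl/fl group has no Cre, so Cre and loss of Ikaros cannot be told apart here.

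Some other markers moved with the loss of Ikaros after HEL, and their part in the Igkv values was not tested. The 7 listed myeloid transcripts summed to 28.1 to 40.8 TPM in Cre fl/fl libraries and to 9.82 to 15.5 TPM in fl/fl libraries. Of 4 tested, Cd68 (1.49 ± 0.13) and Csf1r (1.44 ± 0.15) rose and 0 fell, beside 12.9% and 24.1% of all genes. The T cell transcripts were near 0 in both groups, with sums of 0.429 to 0.846 TPM in Cre fl/fl and 0.538 to 1.05 TPM in fl/fl libraries. Of 6 tested markers of marginal zone and B1 cells 5 rose and 1 fell, beside 12.9% and 24.1% of all genes. Among those that rose, Cd1d1 lost its call without at least 1 library, at 0.25 to 0.31. The list of 7 summed to 108 to 130 TPM in Cre fl/fl libraries and to 143 to 184 TPM in fl/fl libraries.

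After CpG, Igkv5-43 did not differ between the genotypes beyond its spread (log2 difference 0.01 ± 0.12, limma adjusted p = 0.95, n = 4 each). The sign turned to -0.08 without Cre fl/- replicate 1, to -0.02 without Cre fl/+ replicate 1, to -0.03 without Cre fl/+ replicate 3 and to -0.02 with scaling by median ratios. Other families summed to 14.6, 5.18, 32.3 and 11.1 TPM in Cre fl/- libraries, against 25.4, 12.2, 68.8 and 39.9 TPM in Cre fl/+ libraries, and the groups overlapped. Members above 0 numbered 13 to 30 in Cre fl/- libraries and 17 to 46 in Cre fl/+ libraries. Of 9 tested members 1 was called, beside 14.9% of all genes tested: 0 were higher and 1 lower, beside 9.14% and 5.80% of all. It was Igkv1-110, at 0.989, 0, 0.364 and 0.341 TPM in Cre fl/- libraries, against 1.29, 1.37, 8.15 and 6.19 TPM in Cre fl/+ libraries. Every Cre fl/- value lay below every Cre fl/+ value (-1.65 ± 0.47, adjusted p = 0.045). All Cre fl/- values were below 1 TPM, so the segment passed the filter only through the Cre fl/+ libraries. The separation is thus no support by itself. The call was lost without any 1 of the 4 Cre fl/- libraries, without Cre fl/+ replicates 3 or 4, with no filter, and with voom, at differences of -1.30 to -2.75. Of the Cre fl/+ replicates 3 and 4, high for this segment, replicate 4 also had 96.2 TPM of the 7 myeloid transcripts. Replicate 3, at 14.8 TPM, lay within the 1.27 to 17.1 TPM of the other 6 CpG libraries. The part of the myeloid transcripts in these values was not tested. By their numbers the CpG libraries fall into a lower and a higher block with both genotypes in each, and with a term for this block 2 members were called, a share like the 21.4% of all genes called with it. The effects of Ikaros loss after CpG and after HEL were set against each other, and stimulus, series, alleles and Cre of the controls differ together there and cannot be told apart. No difference passed for the 19 tested members in limma, with 0 called beside 22.4% of all genes (15.2% higher, 7.19% lower), 1 at an unadjusted p under 0.05 and 1 called by voom (Igkv5-43). For Igkv5-43 that difference was -0.40 ± 0.15 (adjusted p = 0.070). Its unadjusted p is the one under 0.05, and it passed with scaling by median ratios (-0.45) and without HEL Cre fl/fl replicate 4 (-0.47) or CpG Cre fl/- replicate 1 (-0.49).

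In naive cells of series 36, 0 of 8 tested members were called, beside 0.0199% of all genes tested. In limma 3 members had an unadjusted p under 0.05 (Igkv1-117, Igkv14-111 and Igkv16-104), and voom called 0. Igkv5-43 differed by 0.27 ± 0.14 (adjusted p = 0.62, n = 2 each). Other families summed to 11.4 and 19.8 TPM in Cre fl/- libraries, against 65.2 and 15.5 TPM in Cre fl/+ libraries. Cre fl/+ replicate 1 stood apart with 51 members above 0, against 25 and 27 in Cre fl/- libraries and 23 in Cre fl/+ replicate 2. Without it the difference between the groups ended (log2 ratio of the means -1.37 with it and 0.0070 without it). Over all genes, scaling by median ratios moved the median difference in this comparison from -0.12 to -0.01.

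The composition of what remains without Igkv5-43 is described by 1 number per library. An effective number of segments (the exponential of the Shannon entropy of the shares) was 30.1 ± 2.4 in anergic cells, 14.1 ± 1.5 in HEL Cre fl/fl cells, 27.0 ± 2.2 in HEL fl/fl cells and 11.2 ± 9.0 in naive controls (SD, n = 3, 5, 5 and 3). It was computed from unequal reads, 327 to 485 in anergic libraries and 83 to 111 in naive controls. The other 4 Igkv5 members held 9.23% of this remainder in anergic, 38.1% in HEL Cre fl/fl, 19.0% in HEL fl/fl and 52.6% in naive control libraries by group mean. Among naive controls the effective number was 5.68 and 6.30 in the libraries without Cre and 21.5 in the one with Cre. The 24 members of the Igkv4 family summed to 26.6 ± 4.9 TPM in anergic cells, 3.91 ± 0.76 TPM in HEL Cre fl/fl cells, 9.48 ± 2.14 TPM in HEL fl/fl cells and 1.82 ± 0.47 TPM in naive controls. The 6 members of Igkv1 summed to 34.8 ± 7.5, 6.40 ± 5.65, 13.6 ± 2.5 and 3.36 ± 4.25 TPM in the same groups. Anergic libraries were the highest of series 57 for both families.

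**Figure D5:**
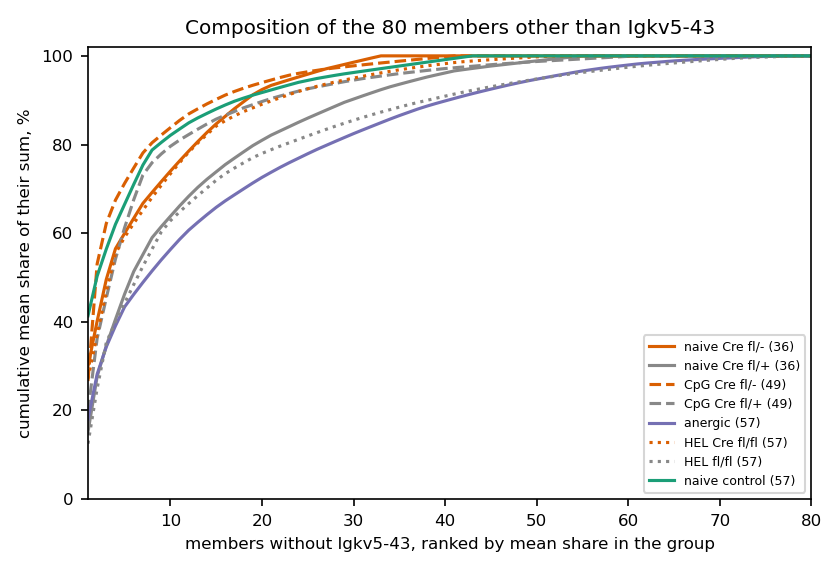
Cumulative mean share of the 80 members other than Igkv5-43, ranked within each group. The curves of anergic and HEL fl/fl cells, with effective numbers of 30.1 and 27.0 segments, climb more slowly than that of the naive controls of series 57, with 11.2.

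Other genes of light chain expression were taken from fixed lists. Of 6 kappa constant and joining genes tested, 2 rose and 0 fell with loss of Ikaros after HEL (12.9% and 24.1% of all genes), among them Igkc (0.56 ± 0.12, limma adjusted p = 0.0025). The list's median was 0.26, beside -0.08 for all genes. The level of Igkc was 28879 ± 4642 TPM in Cre fl/fl and 19519 ± 2982 TPM in fl/fl cells. Against naive controls, HEL fl/fl cells had 0 of the 6 higher and 4 lower (38.1% of all genes were lower), or 2 lower with scaling by median ratios (19.2% of all). Anergic cells had 0 higher and 1 lower against naive controls (2.89% of all genes were lower), and 1 higher against HEL fl/fl cells (36.8% of all), or 0 with that scaling. None of the 6 was called for naive or CpG cells with loss of Ikaros in limma.

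Lambda light chains are the alternative to kappa. Of 9 lambda genes tested, 4 rose and 1 fell with loss of Ikaros after HEL, beside 12.9% and 24.1% of all genes, with a median of 0.06. Among those that rose, Iglc3 and Iglv3 lost their call without at least 1 library, at 0.23 to 0.29 and 0.22 to 0.25. The constant segment Iglc1 was at 1488 to 1952 TPM in Cre fl/fl libraries and at 369 to 476 TPM in fl/fl libraries (1.96 ± 0.08, limma adjusted p = 2.8e-09), and its joining segment Iglj1 rose by 2.04 ± 0.14. The variable segment Iglv1 fell by 0.50 ± 0.11. After 1 day of HEL, 4 were higher and 2 lower than in naive controls, beside 9.92% and 38.1% of all genes (5 and 2 with scaling by median ratios), with Iglv1 at 1.36 ± 0.16 and Iglc1 at -0.76 ± 0.14. The log2 difference of Iglc1 was smaller for Cre fl/- over Cre fl/+ after CpG than for Cre fl/fl over fl/fl after HEL (difference of the effects -1.72 ± 0.17, limma adjusted p = 1.7e-06). After CpG and in naive cells 0 of the 9 were called with loss of Ikaros. In naive cells Iglc1 was nonetheless at 1093 and 1405 TPM in Cre fl/- libraries, against 669 and 469 TPM in Cre fl/+ libraries. With 2 libraries each, only 0.0199% of all genes were called there, so a rise is not shown to be absent.

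The recombinase gene Rag1 was at 0 in all but 1 library, where it was at 0.0138 TPM, and Vpreb3, a gene of the surrogate light chain group, was the 1 testable gene of its list in series 57. It rose with loss of Ikaros after HEL (0.50 ± 0.11), was lower after 1 day of HEL than in naive controls (-1.85 ± 0.07) and higher in anergic than in HEL fl/fl cells (1.01 ± 0.13). It was lower in anergic cells than in naive controls (-0.83 ± 0.17, limma adjusted p = 0.024), and this call was lost without anergic replicate 1 (-0.67) or naive control replicates 1, 2 or 3 (-0.77, -0.87 and -0.86). Of 15 listed factors of the kappa enhancers and promoter, 2 rose and 7 fell with loss of Ikaros after HEL, beside 12.9% and 24.1% of all genes (5 fell with scaling by median ratios, beside 16.7%). After CpG 0 rose and 5 fell (9.14% and 5.80% of all genes), and in naive cells 0 were called. The falls of Ebf1, Irf8 and Nfkb1 after CpG and of Irf4 and Rela after HEL lost their call without at least 1 library. The list includes Ikzf1 itself and its median after HEL was -0.13, beside -0.08 for all genes. With loss of Ikaros after HEL the myeloid and B cell factor Spi1 fell by 0.63 ± 0.08 and Irf8 rose by 0.40 ± 0.07. Irf4, which binds kappa enhancers, was higher in anergic cells than in naive controls (0.77 ± 0.11, adjusted p = 0.0058). It was among 12 of 15 factors higher in anergic than in HEL fl/fl cells, beside 36.8% of all genes. With scaling by median ratios 5 were higher, beside 10.2% of all, and Irf4 (0.27) was not called.

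Plasma cells hold much light chain transcript, and their markers are given beside the anergic libraries. Of 9 listed, 7 were tested and 2 were higher and 1 lower in anergic cells than in naive controls, beside 4.48% and 2.89% of all genes. Sdc1 (syndecan 1, CD138), the surface marker used for plasma cells, was at 8.62 to 14.8 TPM in anergic libraries and at 0.330 to 0.404 TPM in naive controls, and Derl3, of the endoplasmic reticulum, at 23.4 to 34.4 TPM in anergic libraries and 6.80 to 8.81 TPM in naive controls. Fkbp11, a folding enzyme of secretory cells, was lower (-1.42 ± 0.12). The whole list summed to 895 to 946 TPM in anergic libraries and to 1041 to 1045 TPM in naive controls. Tnfrsf17, the receptor BCMA, was at 0 in all anergic libraries. Naive control replicates 1 and 3 also had 1 listed marker at 0, and replicate 2 had 0. Prdm1, the regulator Blimp-1, was at 0.777 to 1.11 TPM in anergic libraries and at 0.120 to 0.261 TPM in naive controls. The part of these markers in the Igkv values was not tested. The joining chain gene, listed as Igj, was at 0.674 to 2.27 TPM in anergic libraries and at 1.23 to 4.85 TPM in naive controls.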

How the data were processed

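The authors deposited TPM per gene, 1 table per library, and the TPM of each library sum to 1000000. Per the submitters' processing notes, featureCounts 1.5.0, TopHat 1.4.1 and Bowtie were among the tools of the series, with SAMtools 1.4, deepTools 3.0.1 and build mm9. Their roles and the strandedness are not given in the sources used here. Suffixes were removed from gene names. Reads were recovered as whole multiples (tolerance 0.01) for 18843 of 18843 genes above 0. The members and gene lists were chosen with earlier results of these data known.

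Under R 4.3.3, tests were made with limma (version 3.58.1) of log2(TPM + 1), which understates the change of low genes, with a mean-variance trend, only the groups compared, genes that reached 1 TPM in at least the number of libraries of the smaller group, and Benjamini-Hochberg adjustment over all genes tested. A call is an adjusted p under 0.05. The test was also run on simulated data. Alternatives were a pseudocount of 0.1, median-ratio scaling, scaling without immunoglobulin genes, no filter, voom on recovered reads, a term for the block of library numbers, and leaving out each library.

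Genes named were all Igkv5 members, the 10 largest mean shares, the called members (of more than 10, the 5 highest and 5 lowest), the 3 most like Igkv5-43 and called or abundant genes of the lists. Members that were not called are named where they serve a comparison, chosen after their values were seen. No replicate pair agreed within sampling noise. The 12 ChIP-seq and ATAC-seq samples were not analysed here, and no sequence of the segments is shown.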

Additional observations from a re-analysis of the deposited data

Results flagged for a closer look

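A library was looked at when it lay far from the rest of a group of 4 or 5, with a gap that passes Dixon's limit of 95% confidence. Of 75 pairs of a group and a measure (segments with at least 10 reads in the group), 5 held such a library, and chance alone gives about 1 in 20. After HEL, Cre fl/fl replicate 4 had a summed Igkv level of 4261 TPM, against 5335 to 5543 TPM in the other 4, through Igkv5-43 at 4226 TPM against 5286 to 5505 TPM. Also after HEL, fl/fl replicate 5 had 73.6 TPM of other families, against 47.3 to 54.7 TPM in the other 4. After CpG, Cre fl/- replicate 3 had 4.88 TPM of Igkv16-104, against 0 to 0.704 TPM. In the same group replicate 1 had 12.4 TPM of Igkv5-39, against 5.91 to 6.83 TPM.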

How the results depend on the processing

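No paired analysis was possible because the labels number no replicates. The direction of the summed level rests on Igkv5-43. Without it the log2 ratio of sums reversed to -0.89 (naive), -0.78 (HEL) and -0.73 (CpG) for loss of Ikaros, and to 1.97, 0.92 and 1.05 for anergic over naive, HEL over naive and anergic over HEL. Median-ratio scaling turned the CpG sum to -0.014. Evenness without Igkv5-43 differed, in the same order, by -0.115, -0.149, -0.083, 0.271, 0.246 and 0.025, and as a scaled inverse Simpson index by -0.00024 (HEL), -0.00013 (CpG), 0.0012, 0.00027 and 0.00097. Members called moved to 15 of 81 without the filter for HEL loss (22.97% of all genes), to 2 (median ratios), 0 (no filter), 0 (voom) and 2 (block term) for CpG loss, to 14 of 81 without the filter for HEL over naive (29.5% of all), and to 1 (median ratios), 4 (no filter) and 1 (voom) for CpG against HEL. The cause was not tested. Leaving out 1 library gave 4 to 8 calls for HEL loss, 0 to 1 for CpG loss, 7 to 13 for anergic over naive, 5 to 12 for HEL over naive, 12 to 16 for anergic over HEL and 0 to 1 for CpG against HEL. It gave summed log2 ratios of -0.092 to 0.086 for CpG loss, and for naive loss an evenness difference of -0.048 to 0.00098 and a share difference of Igkv5-43 of -0.091 to 2.87 percentage points. In naive cells this left 1 library in a group, assumed to vary like the others. For Igkv5-43 after CpG the difference reversed to -0.021 (median ratios), -0.080, -0.023 and -0.033 (without Cre fl/- replicate 1, Cre fl/+ replicates 1 and 3), in a range of -0.080 to 0.087.

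Most members are known from few reads: 80 of them shared 47 to 485 reads in a library, so single low segments cannot be ranked, and a segment at 0 is not shown to be absent.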
